A study of Mus musculus with 6 samples.

Results

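Homeobox genes and their Pax relatives encode the transcription factors that lay out the body axis, brain regions and organs in the embryo. Described here are 119 of them among the 48795 genes of a mouse hippocampus count table, chosen by symbol: the HOX clusters, the CDX, EVX, NKX, MSX, TLX, BARX, BARHL, HMX, VAX, GBX, EN and DLX genes, the PAX, PITX, OTX, ALX, PHOX2 and VSX genes, the LIM (LHX and ISL) genes, the sine oculis-related genes and the IRX genes. Pax1 and Pax9 carry a paired domain but no homeodomain. The 7 interneuron and oligodendrocyte factors Lhx6, Dlx1, Dlx2, Dlx5, Dlx6, Nkx2-1 and Nkx6-2 match the symbol pattern but were kept out, and no gene was dropped for low counts. Polyadenylated RNA was sequenced from 3 hippocampus libraries of Kdm1a and Kdm5c double knockout mice (KO; the labels write ifKO) and from 3 of wild-type mice (WT), and all 6 carry the label TMX, for tamoxifen. The KO genotype is given as the floxed alleles Kdm1a f/f and Kdm5c f/f with CamKIIα-CreERT2. The recombinase works after tamoxifen in principal neurons of the forebrain, and it removes exons 5 and 6 of Kdm1a and exons 11 and 12 of Kdm5c. Mice had a C57BL/6J background and were 2 to 3 months old when tamoxifen was given. The labels leave unsaid which of these alleles the WT mice carried, and an effect of the recombinase or of a floxed allele and that of the deletions cannot be told apart. Nor can the shares of the 2 enzymes, since no group lacked only 1 of them.

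A homeodomain is a small fold of helices that binds short AT-rich DNA sites. The genes for most of these factors are switched on early in development in narrow territories and are then kept silent elsewhere, mainly by Polycomb complexes, and many sit in stretches of unmethylated, CpG-rich DNA. KDM1A (LSD1) and KDM5C remove methyl groups from lysine 4 of histone H3, a mark of active promoters and enhancers. The comparison asks whether developmental factors of this kind are read out in adult hippocampus once both demethylases are lost from its principal neurons.

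The libraries held 19309576 to 19700249 counts. Each had 3100 to 3404 counts of the Y-linked genes Ddx3y, Uty, Kdm5d and Eif2s3y and 1 to 13 counts of Xist, the pattern of male tissue. Kdm1a measured 38.6 ± 1.29 counts scaled to library size (CPM) in KO and 73.7 ± 3.95 CPM in WT, and Kdm5c 70.6 ± 4.67 CPM in KO and 79.5 ± 2.97 CPM in WT (mean ± SD, n = 3 each). Kdm1a fell (adjusted p = 4.32e-07 by edgeR, quasi-likelihood fit, with p-values adjusted by Benjamini-Hochberg across the genes tested), while Kdm5c did not pass (adjusted p = 0.143 in the same test). These are whole-gene counts, which include the exons outside the deletions and the transcripts of cells without the recombinase. The 16 markers of pyramidal and granule neurons that check the tissue label were all expressed, and their levels summed to 6960 to 7600 CPM in KO and 7360 to 7770 CPM in WT. Of these 16 genes 3 rose (Grp, C1ql2 and Dsp) and 1 fell (Neurod6) in the same test. Camk2a alone held most of the sum (4520 CPM in KO and 4780 CPM in WT), so the sum says little about the other markers. No label ties each library to its own animal, and the p-values therefore reflect only the spread among these samples, which may be technical. In a bulk sample fewer cells of a type and less RNA per cell cannot be told apart.

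Of the 119 genes 53 had no count in any library, 50 had counts too few to test, and 16 could be tested. Developmental homeobox genes thus stood well below the average gene, since 44.5% of them were undetected, against 18.6% of the 21695 protein-coding genes in the table. Together they held 2427 to 2534 counts per KO library and 2130 to 2238 per WT library, that is 0.0124% to 0.0131% and 0.0110% to 0.0114% of all counts. Only 1 gene passed the test: Msx3 was higher in KO. None was lower by the same rule, edgeR adjusted p under 0.05, and 5 were higher and 0 lower at an unadjusted p under 0.05. Over all 16861 genes tested 5.90% were called higher and 1.05% lower (6.95% either way), and at an unadjusted p under 0.05 the shares were 12.6% and 7.66%. A second gene, Phox2a, had 27 counts in KO and 0 in WT but fell below the filter on low counts.

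**Figure D1:**
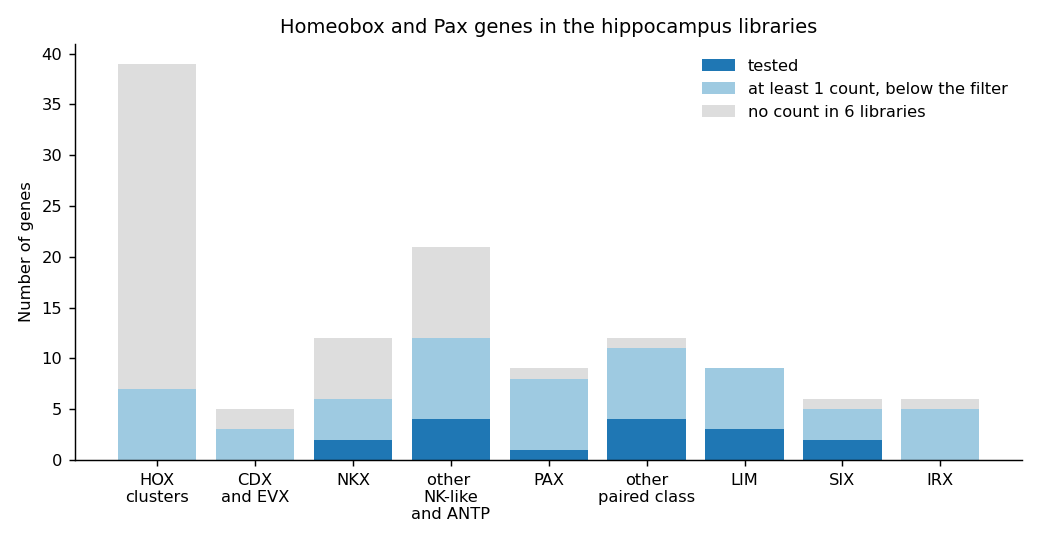
Number of homeobox and Pax genes in each family (vertical axis), split into genes tested, genes with at least 1 count that fell below the filter, and genes with no count in the 6 libraries. In the HOX clusters 32 of 39 genes had no count, whereas all 9 LIM genes had at least 1.

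The start-site regions of both genes, of Msx1, the relative of Msx3 with the most reads, and of a silent HOX gene are shown because they let the reader compare their CpG content. Each runs 5′ to 3′ on the gene's own strand, from 250 bases before to 50 bases after the annotated start (RefSeq, GRCm38.p6), with every CpG dinucleotide in capitals. Msx3 lies at chr7:140049039-140049338 (minus strand), Phox2a at chr7:101818063-101818362 (plus strand), Msx1 at chr5:37824536-37824835 (minus strand) and Hoxd12 at chr2:74674763-74675062 (plus strand). Hoxd12 was taken from near the middle of the CpG numbers of the 18 HOX genes that had no count and a start-site region in the table.
Msx3: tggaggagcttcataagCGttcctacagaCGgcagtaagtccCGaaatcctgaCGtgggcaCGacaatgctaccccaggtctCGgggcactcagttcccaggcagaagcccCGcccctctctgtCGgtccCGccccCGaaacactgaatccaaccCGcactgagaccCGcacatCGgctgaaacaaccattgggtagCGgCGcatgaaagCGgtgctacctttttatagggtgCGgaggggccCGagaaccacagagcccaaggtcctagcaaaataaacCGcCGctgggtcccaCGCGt
Phox2a: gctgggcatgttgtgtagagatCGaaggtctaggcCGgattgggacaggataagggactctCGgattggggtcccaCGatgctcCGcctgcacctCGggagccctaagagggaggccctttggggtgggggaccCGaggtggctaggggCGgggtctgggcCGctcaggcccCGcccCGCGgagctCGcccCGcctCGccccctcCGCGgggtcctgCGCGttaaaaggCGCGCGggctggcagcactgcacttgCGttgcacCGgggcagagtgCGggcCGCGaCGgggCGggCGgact
Msx1: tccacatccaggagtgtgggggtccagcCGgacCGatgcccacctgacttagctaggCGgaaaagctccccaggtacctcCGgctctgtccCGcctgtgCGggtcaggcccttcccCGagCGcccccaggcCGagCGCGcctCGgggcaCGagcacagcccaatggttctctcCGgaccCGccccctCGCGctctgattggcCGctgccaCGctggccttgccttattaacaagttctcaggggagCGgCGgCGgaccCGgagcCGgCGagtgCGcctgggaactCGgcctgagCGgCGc
Hoxd12: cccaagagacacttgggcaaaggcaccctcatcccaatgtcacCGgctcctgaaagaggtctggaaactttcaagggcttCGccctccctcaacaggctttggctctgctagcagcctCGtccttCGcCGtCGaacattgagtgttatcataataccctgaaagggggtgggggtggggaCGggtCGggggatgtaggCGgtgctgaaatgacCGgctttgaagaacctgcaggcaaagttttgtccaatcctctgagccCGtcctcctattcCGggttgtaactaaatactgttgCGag

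These windows hold 22 CpGs in Msx3, 30 in Phox2a, 29 in Msx1 and 13 in Hoxd12, where the 18 silent HOX genes ranged from 4 to 45. For 76 of the 119 genes a window of 300 bases was available, and CpG, which reads the same on both strands, was found in 100% of them and in 94.2% of all 27025 windows. The median number of CpGs was 17.5 over the 76 genes and 7 over all windows. A GC content of at least 50% with an observed to expected CpG ratio of at least 0.6 was met by 55.3% of the 76 and by 34.1% of all. Among the homeobox windows it was met by 7 of the 10 of tested genes, 16 of the 31 of genes below the filter and 19 of the 35 of genes with no count. CpG-rich starts therefore occurred at both ends of the expression range, including those of genes without a single read.

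Msx3, a gene of the dorsal neural tube in the embryo, was the gene that rose. It had 10, 13 and 11 counts in KO replicates 1, 2 and 3, against 2, 2 and 1 counts in WT replicates 1, 2 and 3. Every KO library thus lay above every WT library, and the level remained very low in both groups (0.579 ± 0.0821 CPM in KO and 0.0862 ± 0.0296 CPM in WT, mean ± SD, n = 3 each). The fold change was 6.32 (95% interval 2.97 to 13.4; log2 2.66, SE 0.506), and the Benjamini-Hochberg adjusted p in edgeR was 0.00436. Msx3 (ENSMUSG00000025469, chromosome 7, 140046157 to 140049089, minus strand, GRCm38) passed the filter only through its KO counts, so being testable and being higher are not independent. With no filter it kept its call (adjusted p = 0.00228), and in DESeq2 it missed the threshold (adjusted p = 0.0523). No exon of another annotated gene overlaps it. Its nearest tested neighbours, Zfp511 at 5555 bases and Caly at 20791 bases, had log2 fold changes of -0.09 and 0.15 (edgeR adjusted p = 0.686 and 0.305).

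The other members of the Msx family, Msx1 and Msx2, which pattern the skull, teeth and dorsal midline, had more reads in KO but did not pass. Msx1 had 95, 93 and 90 counts in KO and 72, 54 and 69 counts in WT, without overlap. Its fold change was 1.41 (95% interval 1.11 to 1.78), with an edgeR adjusted p of 0.0825. The adjusted p ranged from 0.0689 to 0.268 over the other tools, scalings, filters and left-out libraries. Msx2, below the filter, had 13, 9 and 10 counts in KO and 9, 5 and 6 counts in WT, so that 1 KO library and 1 WT library were equal. Separation of all KO libraries above all WT libraries was seen for 4 of the 16 tested genes (Msx3, Msx1, Lhx2 and Otx2) and for 13.7% of all tested genes, and the reverse for 0 of 16 and 8.14%.

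Phox2a, which specifies noradrenergic and autonomic neurons, had reads in every KO library and none in WT. Its counts were 14, 10 and 3 in KO replicates 1, 2 and 3, and 0 in each WT library. With a floor of 3 counts put in for the WT group, the ratio per library size was 9.01. The 95% counting interval of the ratio, which covers counting error only, started at 6.84. Of the 11922 genes below the filter that had a count, 0.797% had 0 counts in each WT library and at least 1 in each KO library. Over all genes with a count the share was 0.337%, and Phox2a was the only one of the 119 genes that met this rule. Genes with fewer than 3 counts cannot meet it, and 4127 of the 11922 had at least 10 counts, so these shares are not those of genes counted like Phox2a. With no filter on low counts edgeR called it higher (adjusted p = 0.000406), and so did DESeq2 (adjusted p = 0.00451). The edgeR fit called 4.05% of the 28783 genes with a count higher. DESeq2 called 4.49% of the 19294 genes to which it gave an adjusted p higher. In the fit with no filter, in a check chosen after seeing the data, the call was lost without KO replicate 1 (edgeR adjusted p = 0.0744), without KO replicate 2 (0.172) and without WT replicate 1 (0.123). It held without KO replicate 3 (0.0169), which had the fewest reads, and without WT replicates 2 and 3 (0.0456 and 0.0234). Phox2a (chromosome 7, 101818313 to 101822726, plus strand) shares 95 of its 2035 exonic bases with Inppl1 on the other strand. Inppl1 had 739, 702 and 713 counts in KO and 657, 690 and 594 counts in WT (log2 fold change 0.13, edgeR adjusted p = 0.357).

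**Figure D2:**
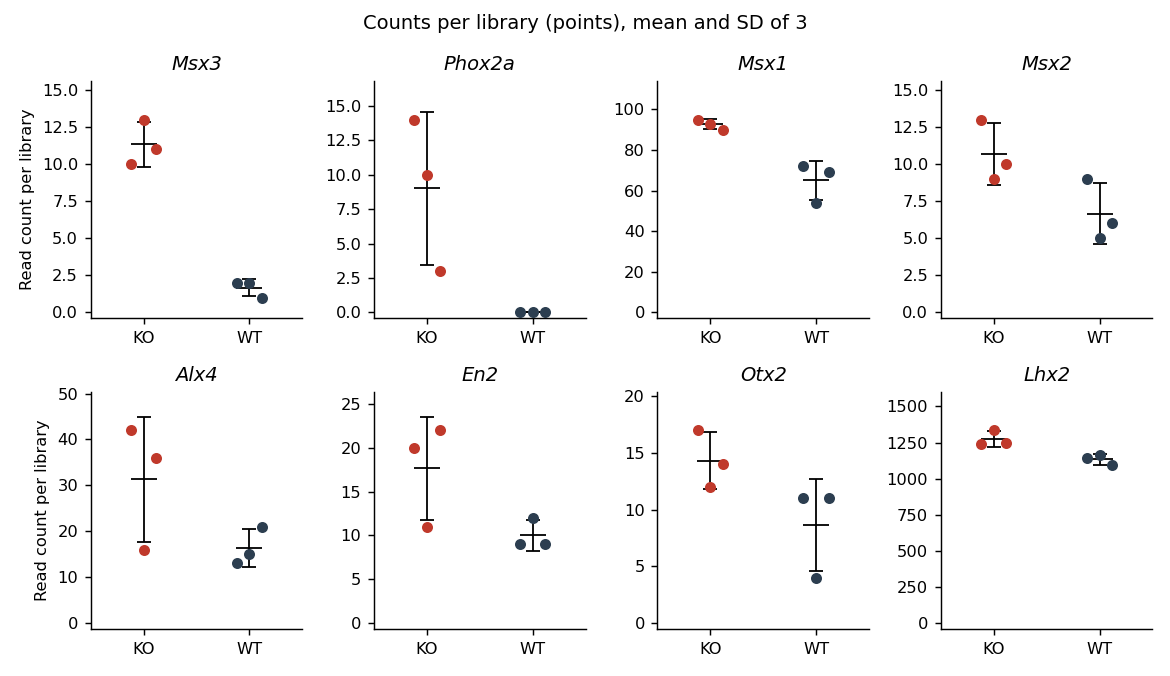
Read counts in each library (points; KO left, WT right) for 8 homeobox genes, with the mean and SD of 3 libraries as a bar and whiskers. Msx3, Phox2a, Msx1, Otx2 and Lhx2 have every KO point above every WT point, while Alx4 and En2 have 1 low KO library, replicate 2, among the WT points.

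Several tested genes had fold changes above 1 without passing. Alx4, a factor of skull and limb mesenchyme, had 42, 16 and 36 counts in KO and 13, 15 and 21 counts in WT. KO replicates 1 and 3 were above every WT library and KO replicate 2 lay within the WT range. The fold change was 1.88 (95% interval 1.12 to 3.17; edgeR adjusted p = 0.150), and Alx4 passed when KO replicate 2 was left out (log2 fold change 1.22, edgeR adjusted p = 0.0254). En2, which marks the midbrain and hindbrain border, had 20, 11 and 22 counts in KO and 9, 12 and 9 counts in WT, with the same KO library lowest. Its fold change was 1.73 (95% interval 1.03 to 2.92; edgeR adjusted p = 0.218).

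Markers of meninges and fibroblasts were lowest among the KO libraries in the same replicate. The 11 listed markers other than Alx4 summed to 600.5, 233.3 and 576.2 CPM in KO replicates 1, 2 and 3, and to 322.7, 233.8 and 251 CPM in WT replicates 1, 2 and 3. Of the 12 listed genes 11 were tested, 1 rose (Foxc1, a forkhead factor of meningeal mesenchyme) and 0 fell, and none was at 0. The 11 listed choroid plexus markers other than Otx2 summed to 133.4, 65.3 and 132 CPM in KO and 52.6, 37.1 and 37.5 CPM in WT. Of those 12 genes 9 were tested, 1 rose (Kl, the anti-ageing factor klotho), 0 fell and none was at 0. Kl alone measured 58.9 ± 3.45 CPM in KO and 22 ± 1.37 CPM in WT (SD, n = 3 each). The sum in KO replicate 2 thus came mostly from Kl. Ttr, the other large contributor, had 1155, 31 and 1103 counts in KO and 374, 114 and 139 in WT. For Ttr, KO replicate 2 lay below every WT library. Otx2, like Alx4 and En2, had its lowest KO count in replicate 2 (17, 12 and 14 counts in KO replicates 1, 2 and 3). Unlike them, Msx3 had its highest KO count in replicate 2, though its counts of 10, 13 and 11 lay close together. Phox2a and Msx1 had their lowest KO counts in replicate 3. The part of these tissues in the values of Alx4, En2, Otx2, Msx1, Msx3 and Phox2a was not tested.

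**Figure D3:**
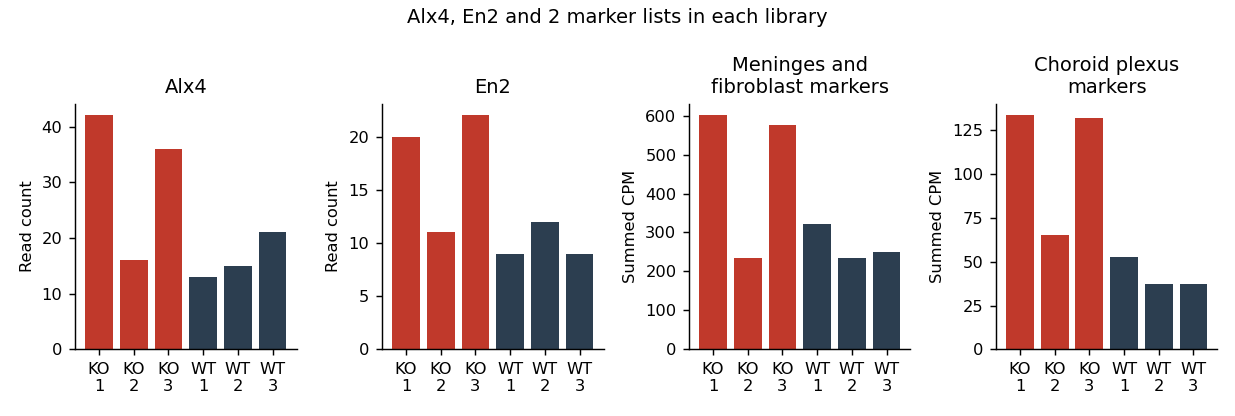
Read counts of Alx4 and En2, and summed CPM of marker genes of meninges with fibroblasts (without Alx4) and of choroid plexus (without Otx2), in each KO (red) and WT (dark) library. All 4 panels have their lowest KO bar in replicate 2, at 16 and 11 counts and 233.3 and 65.3 CPM.

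Otx2, a head and choroid plexus factor, had 17, 12 and 14 counts in KO and 11, 4 and 11 counts in WT. All KO libraries were above all WT libraries, and the fold change was 1.62 (95% interval 0.911 to 2.89; edgeR adjusted p = 0.342). Nkx2-2, needed for oligodendrocyte differentiation, had 54, 74 and 60 counts in KO and 60, 40 and 40 counts in WT, with overlap. Its fold change was 1.33 (95% interval 0.973 to 1.81; edgeR adjusted p = 0.298). The 14 listed markers of oligodendrocytes and their precursors, 13 without Nkx2-2, summed to 5840 to 6560 CPM in KO and 5270 to 5680 CPM in WT; 1 of the 14 rose (Mbp), 0 fell and none was at 0. Whether that bears on Nkx2-2 was not tested.

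The best measured homeobox genes differed little between genotypes. Lhx2, which sets hippocampal and cortical identity in the embryo, had the highest level per exonic length in WT (13.3 CPM per kilobase). It had 1241, 1335 and 1244 counts in KO and 1142, 1164 and 1093 counts in WT. The groups did not overlap, but the fold change was only 1.11 (95% interval 1.01 to 1.22; edgeR adjusted p = 0.191). Lhx2 is also made by astrocytes, whose 9 other listed markers summed to 5120 to 5190 CPM in KO and 4630 to 4940 CPM in WT; of the 10 genes 2 rose (Gfap and Hes5), 0 fell and none was at 0, and their part in the Lhx2 value was not tested.

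Lhx9, a LIM factor of the diencephalon and gonad, followed at 2.07 CPM per kilobase in WT. It had 417, 434 and 395 counts in KO and 379, 369 and 394 counts in WT (fold change 1.08, 95% interval 0.951 to 1.22). Pax6, a factor of neural progenitors and the eye, had 189, 170 and 189 counts in KO and 210, 166 and 157 counts in WT (fold change 1.02, 95% interval 0.844 to 1.22). Otx1, a factor of deep cortical layers, had 57, 83 and 68 counts in KO and 72, 73 and 63 counts in WT (fold change 0.987, 95% interval 0.759 to 1.28). For Lhx2, Lhx9, Pax6 and Otx1 the intervals end at or below 1.28-fold, and their edgeR adjusted p-values ran from 0.191 to 0.970.

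Six5, a gene beside the myotonic dystrophy kinase gene, had 96, 84 and 77 counts in KO and 70, 98 and 86 counts in WT (fold change 0.998, 95% interval 0.776 to 1.28). Six4, a factor of muscle and sensory development, had 48, 50 and 55 counts in KO and 40, 49 and 39 counts in WT (log2 fold change 0.24, 95% interval of the fold change 0.891 to 1.56). Both genes overlapped between the groups. Barx2, a Bar-like homeobox gene, had 33, 26 and 31 counts in KO and 32, 19 and 25 counts in WT. Lhx1, a LIM factor of head and kidney development, had 10, 11 and 5 counts in KO and 5, 11 and 4 counts in WT. Both overlapped between the groups, with fold changes of 1.17 (95% interval 0.807 to 1.69) and 1.28 (0.621 to 2.63).

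**Figure D4:**
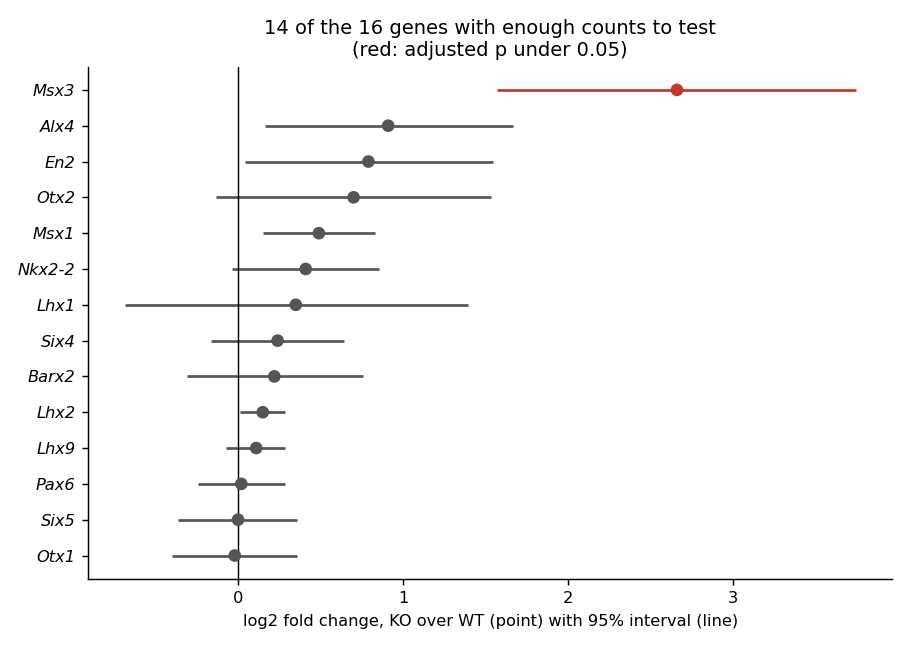
Log2 fold change of KO over WT (points) with its 95% interval (lines) for 14 of the 16 tested homeobox and Pax genes. The interval of Msx3 (2.97 to 13.4-fold) starts above those of Lhx2, Lhx9, Pax6, Six5 and Otx1 end, which is at most 1.28-fold.

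The median log2 fold change of the 16 was 0.23, and -0.01 over all tested genes, with 13 of 16 above 0 and 48.2% of all. A gene nearly silent in WT is tested only if KO supplies the counts, so these figures describe the genes that passed the filter and not the 119.

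The genes below the filter also showed how little was transcribed. Their 103 members summed to 139, 101 and 106 counts in KO and 89, 76 and 96 counts in WT. Over the groups that was 346 against 261 counts, a ratio per library size of 1.33 (95% counting interval 1.13 to 1.56). Without Phox2a it was 319 against 261 counts, a ratio of 1.22 (1.04 to 1.45), where all genes below the filter together gave 1.09 (1.08 to 1.11). These intervals cover counting error only. More counts in KO than in WT were seen in 27 of the 50 genes with a count and fewer in 20, against 46.7% and 41.7% of all genes below the filter with a count. Of the 97 homeobox genes with a WT mean under 0.2 CPM none reached 1 CPM in KO, which 0.0930% of all genes so low in WT did and 0.423% of the protein-coding ones.

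Among the 22 genes below the filter with at least 10 counts, 3 had every KO library above every WT library (Phox2a, Vsx1 and Nkx2-9) and 2 had every KO library below (Barhl2 and Irx6). Over all 4127 such genes the shares were 6.76% and 2.79%. Vsx1, of retinal bipolar cells, had 5, 2 and 4 counts in KO and 1, 0 and 1 counts in WT (ratio 5.51). Nkx2-9, of the ventral neural tube, had 3, 5 and 3 counts in KO and 1, 2 and 2 counts in WT. Gbx1, a gastrulation homeobox gene of spinal cord and basal forebrain, had 13, 5 and 9 counts in KO and 2, 3 and 5 counts in WT (ratio 2.70, interval 1.27 to 6.26), with 1 KO library level with 1 WT library.

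Barhl2, a factor of the diencephalon, retina and spinal cord, went the other way in counts, with 0, 0 and 1 in KO and 2, 5 and 5 in WT. The ratio was 0.0834 (95% counting interval 0.00195 to 0.564). Irx6, an Iroquois gene of the retina, had 3, 5 and 3 counts in KO and 8, 7 and 10 counts in WT (ratio 0.440, interval 0.196 to 0.928). In edgeR with no filter, the adjusted p was 0.107 for Barhl2, 0.284 for Irx6, 0.280 for Vsx1 and 0.190 for Gbx1. That fit called 0 homeobox genes lower, where 0.969% of all 28783 genes with a count were. At an unadjusted p under 0.05 it had 9 of the 66 homeobox genes with a count higher and 2 lower, where 8.75% and 5.52% of the 28783 genes were.

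**Figure D5:**
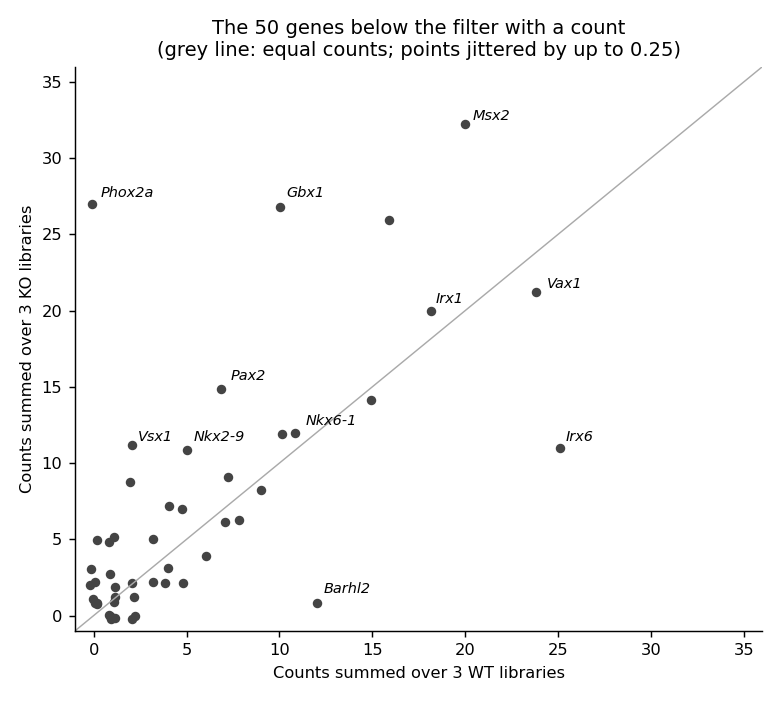
Counts summed over the 3 KO libraries (vertical axis) against the 3 WT libraries (horizontal axis) for the 50 homeobox and Pax genes that had a count but fell below the filter. Phox2a stands on the axis at 27 against 0, and Barhl2 (1 against 12) and Irx6 (11 against 25) lie below the line of equal counts.

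Other genes with many reads below the filter had counting intervals that included equality. Vax1, of the developing eye and optic nerve, had 21 counts in KO and 24 in WT, a ratio of 0.876 (0.464 to 1.64). Irx1 and Irx3, Iroquois patterning factors, had 20 and 14 counts in KO and 18 and 15 in WT. Nkx6-1, of motor neurons and pancreatic beta cells, had 12 counts in KO and 11 in WT, and Pax5, of B cells and the midbrain border, 12 in KO and 10 in WT. The upper ends of the intervals of these last 4 genes were 2.23, 2.08, 2.73 and 3.10. Higher levels in KO of up to that size therefore lay within the intervals, which cover counting error only.

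The HOX clusters, which pattern the hindbrain, spinal cord and trunk, were almost without reads in both genotypes. Their 39 genes, on 4 chromosomes, held 10 counts in KO and 13 in WT in all, and 32 had none. The Hoxa genes had 4 and 4 counts in KO and WT, the Hoxb genes 3 and 3, the Hoxc genes 1 and 1 and the Hoxd genes 2 and 5. No HOX gene exceeded 3 counts in any library, and the highest totals over the 6 libraries were 7 each in Hoxa7 and Hoxd1. A gene with 0 of 58391300 counts in the KO group can have a level of up to 0.0514 CPM, and 0.0513 CPM for 0 of 58450116 in WT. The CDX and EVX genes, neighbours or relatives of the HOX genes in the posterior body, had 3 counts in KO and 1 in WT over 5 genes.

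By family, counts over the 3 libraries of each group were 5110 in KO and 4581 in WT for the LIM genes, most of them Lhx2, and 583 and 558 for the PAX genes, most of them Pax6. The sine oculis-related genes had 426 and 393, the NKX genes 260 and 211 and the IRX genes 56 and 67. The other paired-class genes (PITX, OTX, ALX, PHOX2 and VSX) had 456 and 338, and the NK-like genes with EN, GBX and DLX had 552 and 383. Called genes were 0 in each family except the last, which holds Msx3.

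A list of homeobox genes outside these families held 95 further homeobox genes (the 7 left out above, and EMX, PROX, MEIS, PBX, POU, CUX, ZEB, ZFHX and others). Of these 57 were tested, 4 rose and 1 fell, counts close to the 5.90% and 1.05% of all tested genes, and 8 were at 0. Mixl1, a factor of early mesoderm and endoderm named after its values were seen, was too low to test, with 5, 5 and 10 counts in KO and 0 in each WT library. The median log2 fold change was 0.03, against -0.01 over all tested genes. Sebox, expressed in oocytes and early embryos, measured 9.04 ± 1.17 CPM in KO and 5.93 ± 0.828 CPM in WT (SD, n = 3 each; log2 fold change 0.61, SE 0.142). Hhex, a factor of endoderm and endothelium, had 47, 41 and 53 counts in KO and 25, 28 and 27 counts in WT (0.80, SE 0.206). Zeb1, a repressor of epithelial genes, measured 102 ± 6.51 CPM in KO and 85.4 ± 2.92 CPM in WT, and Zfhx2, a zinc finger homeodomain protein of neurons, 108 ± 4.99 CPM in KO and 133 ± 13.1 CPM in WT (SD, n = 3 each). Exons of Zfhx2os and Gm20687 overlap 17.9% of the exonic bases of Zfhx2.

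Pou3f1, a POU factor of Schwann cells and forebrain named after its value was seen, measured 44.4 ± 4.05 CPM in KO and 36.6 ± 1.60 CPM in WT. In edgeR the Benjamini-Hochberg adjusted p was 0.0173 for Sebox, 0.0319 for Hhex, 0.0302 for Zeb1, 0.0225 for Zfhx2 and 0.0455 for Pou3f1. Each lost its call when certain single libraries were left out. For Sebox these were KO replicates 2 and 3 and WT replicate 2 (edgeR adjusted p up to 0.109), and for Zfhx2 KO replicates 1 and 3 and WT replicate 2 (up to 0.146). For Zeb1 they were KO replicates 1 and 2 and WT replicates 1 and 3 (edgeR adjusted p up to 0.153). Hhex kept its call only without KO replicate 2, and Pou3f1 only without KO replicate 1 (edgeR adjusted p up to 0.152 and 0.239 otherwise). Both also missed in DESeq2 (adjusted p = 0.173 and 0.0580) and with a replicate block (edgeR adjusted p = 0.0535 and 0.0611), and Pou3f1 in limma-voom (adjusted p = 0.0543). The interneuron factors Lhx6 and Dlx1 and the dentate granule cell factor Prox1 did not pass, with log2 fold changes of 0.05, -0.13 and -0.06.

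Of 24 tested cofactors of homeodomain proteins 1 rose and 2 fell, where 5.90% of all tested genes rose and 1.05% fell. Lmo1, a LIM-only protein, measured 30.4 ± 1.06 CPM in KO and 23.8 ± 2.86 CPM in WT. Tle2, a Groucho corepressor, measured 34.7 ± 1.28 CPM in KO and 45.7 ± 6.16 CPM in WT, and Ldb2, which bridges LIM domains, 32.4 ± 2.33 CPM in KO and 41.1 ± 4.97 CPM in WT (SD, n = 3 each). Their edgeR adjusted p-values were 0.0306, 0.0134 and 0.0361. Lmo1 kept its call only without WT replicate 3 (edgeR adjusted p up to 0.113 otherwise). Tle2 lost it without KO replicate 1 or 3 (up to 0.0884) and Ldb2 without KO replicates 2 or 3 or WT replicate 1 (up to 0.190), or with scaling by library size alone (edgeR adjusted p = 0.0513).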

How the data were processed

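The files hold whole-number read counts per gene that the authors deposited, 1 column for each library and with no scaling. CPM here means counts scaled by TMM library size, as computed from them. The submitters' processing notes name cutadapt 1.18, HISAT2 (version not given) and HTSeq 0.11.1, with the build GRCm38 (mm10). Annotation release and strand setting: not given in the sources used here. Reads of overlapping genes could therefore be lost or shared. Symbols, exon lengths and overlaps came from GENCODE M21, in which 446 of 48795 identifiers had no match (0.0759% of counts).

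Genes were filtered with filterByExpr (minimum count 10, minimum total 15), scaled with TMM and compared, KO over WT, with edgeR's quasi-likelihood test. Genotype was the single model term, and p-values were adjusted by Benjamini-Hochberg across the 16861 genes, with a threshold of 0.05. Intervals of ratios of summed counts are exact binomial at 95%. The script was tested on simulated data. Software: DESeq2 1.42.0, edgeR 4.0.16, limma 3.58.1, R 4.3.3. Alternatives were DESeq2, limma-voom, other scalings, filters and thresholds, a replicate block and leaving out each library.

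The genes described and all lists were chosen with earlier results of these data known. Genes were named if targeted, if past the threshold, if among the tested or best counted untested genes, or, in the lists, if among the 4 smallest adjusted p-values past the threshold. Vsx1, Nkx2-9, Barhl2, Nkx6-3, Lhx6, Dlx1 and Prox1, and the Msx1 and Hoxd12 sequences, fall outside this rule and were chosen after their values were seen. Some of the genes counted here are not reported by name. Drgx and Tle5 were not matched by symbol; Tle5 is counted as Aes.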

Additional observations from a re-analysis of the deposited data

How the results depend on the processing

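One homeobox gene was called higher, and 0 lower, in the test as reported. The number called higher was 2 with no filter on low counts (Msx3 and Phox2a), 0 with at least 1 CPM in 3 libraries, where Msx3 is not tested, and 2 at a threshold of 0.1 (Msx3 and Msx1). In DESeq2 it was 1, Phox2a in place of Msx3. Leaving out 1 library gave 1 to 2 genes: Alx4 joined Msx3 without KO replicate 2, and Phox2a, which then entered the test, joined it without KO replicate 3 or any 1 WT library. The number called lower was 0 in every alternative run. Of the recomputed log2 fold changes of the 16 tested genes 200 kept their direction if called and their side of the threshold, and the other 2 were Msx3 in DESeq2 and Alx4 without KO replicate 2. The count ratio of the genes below the filter ranged from 1.19 to 1.41 on leaving out a library and was 1.36 with the CPM filter. The replicate numbers shared by the groups are not said to pair the samples, and deviations of same-numbered KO and WT libraries correlated at 0.00, -0.01 and -0.02. KO replicate 1 was closest to WT replicate 2 (0.11), KO replicate 2 to WT replicate 3 (0.13) and KO replicate 3 to WT replicate 1 (0.13). With a replicate block 1 homeobox gene was called higher, again Msx3, and 0 lower. Depth limits these results: 103 of 119 genes could not be tested.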

Other observations

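Of 15 antisense or opposite-strand identifiers named after one of these genes, 0 had enough counts to test and 7 had none. Six3os1, beside the forebrain gene Six3, had 10, 2 and 8 counts in KO and 3, 4 and 0 counts in WT, with KO replicate 2 the lowest KO library. Nkx2-2os had 9, 10 and 8 counts in KO and 5, 4 and 6 counts in WT, each KO library above each WT library, and shares 278 of the 2875 exonic bases of Nkx2-2. Vax2os had 1 count in KO and 9 in WT, and Pax6os1 had 11 in KO and 16 in WT. Whether reads of Nkx2-2 and Nkx2-2os were kept apart is not known without the strand setting. Nkx6-3, a factor of the stomach, had 0, 0 and 9 counts in KO and 0, 0 and 2 in WT, so a single library held most of its reads.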
